A study of Rattus norvegicus with 24 samples.

Results

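The comparison set 3 RNA-seq libraries of PC12 cells labelled α1ACT at 10 d against 3 libraries labelled vector at 3 d, 6 of the 24 libraries of the series. They were chosen because their files are named for Q11 at 10 d and Q11 at 6 h. PC12 is a rat pheochromocytoma line of neural crest origin, here at passages 18 to 20. The labels describe 1 line stably expressing human α1ACT from pcDNA3 and 1 line stably carrying the pcDNA3 vector, each at 6 h, 24 h, 3 d and 10 d, 3 libraries a time (8 groups). With 1 line of each kind, a line difference cannot be told apart from other differences between these lines. Both lines grew in the same medium with horse and fetal bovine serum, no treatment is given, and nothing states what the times were counted from. Under the labels the contrast therefore mixes line and time. Under the file names it is the 10 d end over the 6 h end of the time course of the files named Q11, the prefix that the sample titles give to the α1ACT line. File name and label give different groups for 18 of the 24 libraries, and for 12 of those a different line. Of the libraries compared, those labelled α1ACT 10 d carry the same line and time in both sources. Those labelled vector 3 d are named for the other line at 6 h. Groups are called by their labels below, and both readings are given.

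α1ACT is the carboxy-terminal fragment made from the calcium channel gene CACNA1A, and it is a nuclear transcription factor. Cells that sense a shortage of amino acids or misfolded protein raise translation of the transcription factor ATF4, which induces amino acid transporters, serine synthesis enzymes, tRNA synthetases and CHOP (gene Ddit3). Immediate early genes answer growth factors and serum within minutes, partly through serum response factor (SRF), which also drives actin and contractile genes.

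The 6 libraries held 8679560 to 12213042 counts on genes, and all 24 held up to 14486248. Reads outside annotated genes made up 52.3% to 52.9% in the α1ACT 10 d libraries and 48.4% to 49.5% in the vector 3 d libraries. The PC12 markers Th, Chga, Chgb, Scg2 and Slc18a1 were present in all 6, and the summed level of the 9 listed PC12 markers was 32719 to 34173 CPM (counts scaled to library size) in α1ACT 10 d and 24479 to 25313 CPM in vector 3 d. These markers did not move together. In the test below, 4 of the 9 were higher (28.8% of all genes), 2 lower (28.1%) and 3 did not pass. The lower ones were Hand2 (log2 fold change -0.46) and Gata3 (-0.59). Immune markers summed to 1.5 to 2.12 CPM in α1ACT 10 d and 2.70 to 2.76 CPM in vector 3 d, with Ptprc, Cd14, Aif1, Cd4 and Tyrobp at 0 in all 6 libraries. In α1ACT 10 d, epithelial markers summed to 365 to 387 CPM, fibroblast markers to 1118 to 1179 CPM and Schwann and glial markers to 175 to 184 CPM. In vector 3 d, these sums were 477 to 570.0, 939.7 to 1003 and 144 to 157 CPM. Of the 12 fibroblast markers, 3 had enough counts to be tested, Thy1 and Fbln1 among them, so their sum rests on few genes. Krt20 and Esrp1, Col1a2, Pdgfrb, Lum and Fap, and Sox10 and Fabp7 were at 0 in all 6 libraries. The part of these values in the results below was not tested. In the files the human transgene has no row of its own, and rat Cacna1a was at 13.3, 13.1 and 13.6 CPM in α1ACT 10 d and 13.1, 13.0 and 13.6 CPM in vector 3 d. These ranges overlap, and the log2 fold change was 0.02 ± 0.13 (± SE here and below, 3 libraries a group, adjusted p = 0.914). Each SE is approximate. It is the size of the log2 fold change divided by the square root of F from edgeR's quasi-likelihood test, not a fitted SE.

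Of 9994 genes tested, 5683 (56.9%) differed at an adjusted p under 0.05, with 2874 higher (28.8%) and 2809 lower (28.1%) in α1ACT 10 d. All adjusted p-values come from edgeR's quasi-likelihood test with Benjamini-Hochberg adjustment over these genes. At least 2-fold changes among them numbered 561 (5.61%), 291 higher and 270 lower. The libraries of the groups did not overlap for 6257 genes (62.6%), and the median log2 fold change over all genes was 0.02. The protocol calls the replicates biological but does not say that they were separate cultures, so the p-values measure the spread among these samples. In bulk RNA, fewer cells expressing a gene and less of its RNA per cell cannot be told apart. Gene lists below are read against the 28.8% and 28.1% of all genes.

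The 8 largest rises and 8 largest falls were taken among genes past the threshold with no overlap, so both traits were fixed by the choice. Of the 8 largest rises, 2 belong to the amino acid response list, Chac1 and Stc2. Chac1, which encodes an enzyme that degrades glutathione, had 71.3, 84.5 and 56.8 CPM in the α1ACT 10 d libraries, against 4.84, 3.12 and 5.39 CPM in the vector 3 d libraries. Each α1ACT 10 d library stood far above every vector 3 d library, with a log2 fold change of 4.00 ± 0.16 (16.0-fold, adjusted p = 5.7e-16). Stc2, a secreted glycoprotein of the stanniocalcin family, had 342, 425 and 274 CPM in α1ACT 10 d and 45.1, 40.5 and 34.8 CPM in vector 3 d. This was 8.62-fold higher with no overlap (adjusted p = 1.56e-14). Cth, cystathionine gamma-lyase, which makes cysteine, had 8.12, 7.94 and 4.81 CPM against 0.903, 0.643 and 0.933 CPM in vector 3 d, a log2 fold change of 3.07 ± 0.38. Adm2, a peptide of the calcitonin family, had 29.6, 37.2 and 31.3 CPM in α1ACT 10 d and 4.60, 4.13 and 4.46 CPM in vector 3 d. It was 7.41-fold higher, and its 3 α1ACT 10 d libraries lay close together.

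Inhbe, the activin beta E subunit, had 5.31, 8.05 and 3.64 CPM in α1ACT 10 d, against 0.246, 0 and 0.311 CPM in vector 3 d. With 160 counts in all against 6, its ratio scaled for depth was 31.1 (exact 95% counting interval 14.0 to 86.1). Trim66, a chromatin protein with a PHD finger and a bromodomain, had 6.82, 4.34 and 2.11 CPM in α1ACT 10 d and 0, 0.0919 and 0.311 CPM in vector 3 d. Both genes had 3 counts or fewer in every vector 3 d library. The Trim66 ratio of 37.1 (14.1 to 138) rested on 127 counts against 4, and its fitted log2 fold change of 5.09 ± 0.58 became 4.45 without vector 3 d replicate 1 and 6.38 without vector 3 d replicate 3. Casp4, an inflammatory caspase, had 34.2, 35.7 and 22.3 CPM in α1ACT 10 d, against 5.09, 2.76 and 4.15 CPM in vector 3 d. The groups were clear of each other by a wide margin, with a log2 fold change of 2.94 ± 0.28. Kcnh1, the ether-a-go-go potassium channel, had 31.9, 31.0 and 29.3 CPM in α1ACT 10 d and 5.75, 2.20 and 4.15 CPM in vector 3 d, 7.52-fold higher (adjusted p = 5.86e-12).

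**Figure D1:**
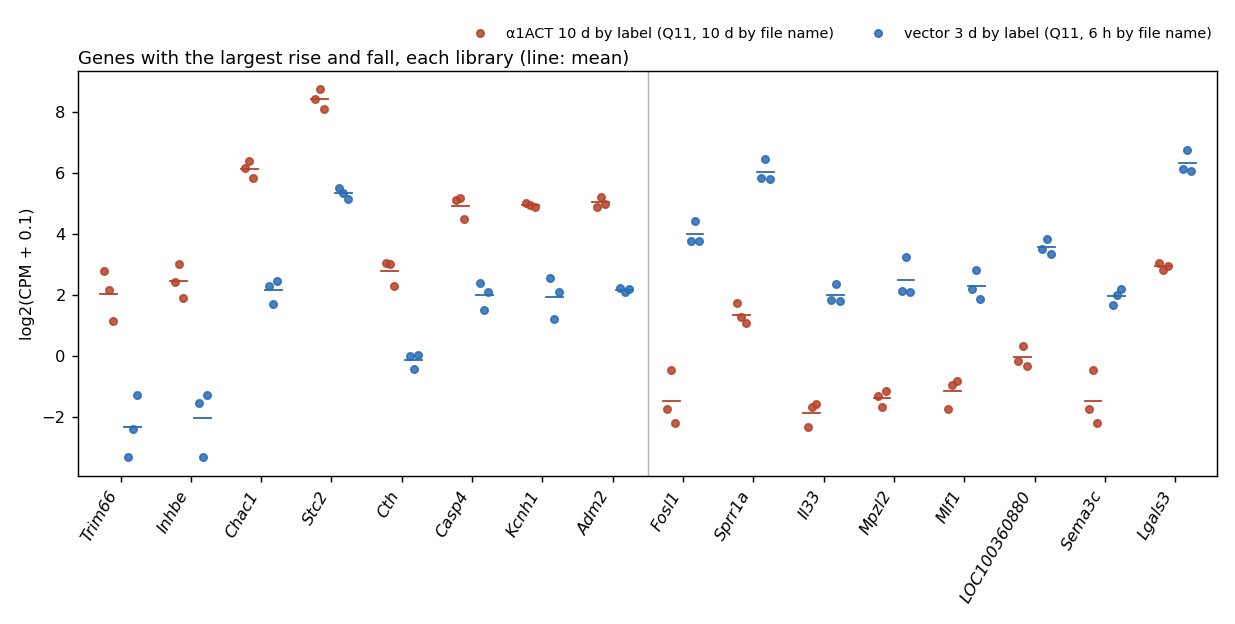
Levels, as log2(CPM + 0.1), of the 8 genes with the largest rise (left) and the 8 with the largest fall (right) in each library. Points are libraries and short lines are means, with α1ACT 10 d left of vector 3 d for each gene. Only genes whose groups do not overlap were eligible.

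The 8 largest falls included an AP-1 subunit, a cytokine and 1 secreted guidance protein. Fosl1, the AP-1 subunit FRA1, had 0.200, 0.635 and 0.117 CPM in α1ACT 10 d, against 13.6, 21.2 and 13.4 CPM in vector 3 d. Its 9 counts against 526 gave a level 50.04-fold lower when scaled for depth (26.2 to 110.04), and the fitted log2 fold change of -5.60 ± 0.38 became -6.56 without α1ACT 10 d replicate 2. Sprr1a, a small proline-rich protein induced in regenerating neurons, had 3.21, 2.33 and 1.99 CPM in α1ACT 10 d and 56.2, 86.6 and 55.8 CPM in vector 3 d. It was 26.0-fold lower (log2 -4.70 ± 0.23, adjusted p = 3.38e-14). Lgals3, the carbohydrate-binding protein galectin-3, had 8.12, 6.99 and 7.63 CPM in α1ACT 10 d, against 69.8, 107 and 67.3 CPM in vector 3 d. Replicate 2 was the highest of the vector 3 d libraries for Fosl1, Sprr1a and Lgals3.

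Il33, an alarmin cytokine, fell to 0.10, 0.212 and 0.235 CPM in α1ACT 10 d, against 3.45, 5.05 and 3.42 CPM in vector 3 d (22.3-fold on 5 against 130 counts, interval 9.30 to 69.7). Mpzl2, an adhesion protein of the immunoglobulin superfamily, had 0.301, 0.212 and 0.352 CPM in α1ACT 10 d and 4.27, 9.28 and 4.15 CPM in vector 3 d (20.7-fold lower, 10.3 to 48.5). Sema3c, a secreted semaphorin, had 0.200, 0.635 and 0.117 CPM in α1ACT 10 d, against 3.12, 3.86 and 4.46 CPM in vector 3 d. Its ratio was 11.7 (5.97 to 26.2), and its fitted value of -3.51 ± 0.36 became -4.47 without α1ACT 10 d replicate 2. Mlf1 (log2 -3.75 ± 0.42) and the unannotated LOC100360880 (log2 -3.71 ± 0.24) completed the 8. Passing the test with no overlap between the groups was a condition of the choice.

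Of the 31 tested genes of the amino acid response and serine synthesis, 29 were higher in α1ACT 10 d (93.5%) and 1 was lower. Their median log2 fold change was 1.25, against 0.02 over all genes. Among the transcription factors, Atf4 had 927, 1003 and 817 CPM in α1ACT 10 d and 356, 429.8 and 368 CPM in vector 3 d, 2.38-fold higher. Ddit3, which encodes CHOP, had 219, 239 and 208 CPM in α1ACT 10 d, against 42.2, 50.3 and 47.3 CPM in vector 3 d, a log2 fold change of 2.25 ± 0.09. Atf5, a related factor, averaged 426 CPM in α1ACT 10 d and 96.7 CPM in vector 3 d. For all 3 factors the lowest α1ACT 10 d library was above the highest vector 3 d library.

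Among the targets of this response, Trib3, a pseudokinase that restrains it, had 213, 255 and 173 CPM in α1ACT 10 d and 52.4, 49.9 and 44.4 CPM in vector 3 d (log2 2.13 ± 0.10). Slc7a11, the cystine transporter, had 149, 169 and 80.2 CPM in α1ACT 10 d, against 18.4, 18.4 and 19.3 CPM in vector 3 d. Replicate 3 was the lowest of the α1ACT 10 d libraries and still far above every vector 3 d library, and the log2 fold change was 2.84 ± 0.24. The enzymes of serine synthesis were all higher, Phgdh by 1.56 ± 0.13, Psat1 by 1.92 ± 0.12 and Psph by 1.81 ± 0.15 on the log2 scale. Asns, asparagine synthetase, had 359, 368 and 287 CPM in α1ACT 10 d and 180.2, 189.7 and 184 CPM in vector 3 d, a log2 fold change of 0.87 ± 0.09. Sesn2, which restrains mTORC1 when leucine is short, was 2.80-fold higher. Slc38a2, a neutral amino acid transporter, was the gene that fell, at 906 CPM in α1ACT 10 d and 1002 CPM in vector 3 d (log2 -0.14 ± 0.04, adjusted p = 0.0078), a call lost without α1ACT 10 d replicate 3. Slc7a1, an arginine transporter, did not pass (212 CPM against 195 CPM in vector 3 d).

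The aminoacyl-tRNA synthetases, which charge tRNAs, were higher for 14 of 20 (70.0%) and lower for 2, with a median of 0.44. Mars, the methionyl enzyme, had 422, 448 and 373 CPM in α1ACT 10 d and 206, 212 and 193 CPM in vector 3 d, 2.03-fold higher. Sars and Cars, the seryl and cysteinyl enzymes, had log2 fold changes of 0.99 ± 0.08 and 1.02 ± 0.10. Vars and Hars, the valyl and histidyl enzymes, were the ones that fell, with log2 fold changes of -0.35 ± 0.04 and -0.28 ± 0.05.

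The CARE motif, TGATGNAA, is the letters that ATF4 with a C/EBP partner is known to bind, and promoters are shown for a transcript of each of these lists that rose and holds it. RefSeq promoters of build GRCr8 were searched over the 250 bases before the gene start on both strands. A match was present in 7 of 29 amino acid response genes with a promoter in the table (24.1%), in 5 of 17 synthetase genes (29.4%), in 150 of 8074 tested genes (1.86%) and in 899 of all 27457 promoters (3.27%). Of the amino acid response and synthetase genes with a match, Slc7a1 did not pass (log2 0.12) and the others were higher. The match is a description of letters and not of binding. Both lists name genes of the response that ATF4 is known to drive, so their shares are no result of these libraries. Capitals mark it, read here as TTGCATCA, in Chac1 (chr3:126795881-126796130, plus strand) and Mars (chr7:65023754-65024003, minus strand), each 5′ to 3′.
Chac1: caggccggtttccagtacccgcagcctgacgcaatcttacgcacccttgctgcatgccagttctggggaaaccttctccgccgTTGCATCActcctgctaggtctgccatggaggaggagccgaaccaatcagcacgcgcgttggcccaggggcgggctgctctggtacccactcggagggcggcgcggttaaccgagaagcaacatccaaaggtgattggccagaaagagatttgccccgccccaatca
Mars: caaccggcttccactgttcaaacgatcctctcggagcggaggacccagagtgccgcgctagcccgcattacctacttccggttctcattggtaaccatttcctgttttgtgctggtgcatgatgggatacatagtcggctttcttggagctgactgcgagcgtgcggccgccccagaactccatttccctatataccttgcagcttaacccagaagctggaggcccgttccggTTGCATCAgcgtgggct

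Protein-folding genes were mixed, and ribosomal protein genes were mostly higher. Of 28 chaperones and degradation factors of the endoplasmic reticulum, 10 were higher and 6 lower, with a median of 0.09, and 6 were higher without α1ACT 10 d replicate 2 or without vector 3 d replicate 1. Herpud1, which serves degradation of misfolded protein, had 251, 262 and 240.3 CPM in α1ACT 10 d and 138, 154 and 145 CPM in vector 3 d (log2 0.79 ± 0.07). Hspa5, the chaperone BiP, was at 933, 962 and 919.8 CPM in α1ACT 10 d and 812, 878 and 865 CPM in vector 3 d and did not pass (adjusted p = 0.21). Of 45 cytosolic ribosomal protein genes, 33 were higher (73.3%) and none fell, with a median of 0.50. Rpl3 had 1491, 1406 and 1533 CPM in α1ACT 10 d, against 925, 916 and 958 CPM in vector 3 d, 1.58-fold higher. Ribosomal protein genes have many near-identical copies, and there were 95.5 to 103 non-unique alignments per 100 reads in α1ACT 10 d and 83.2 to 91.1 in vector 3 d. Their part in the ribosomal counts was not tested.

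**Figure D2:**
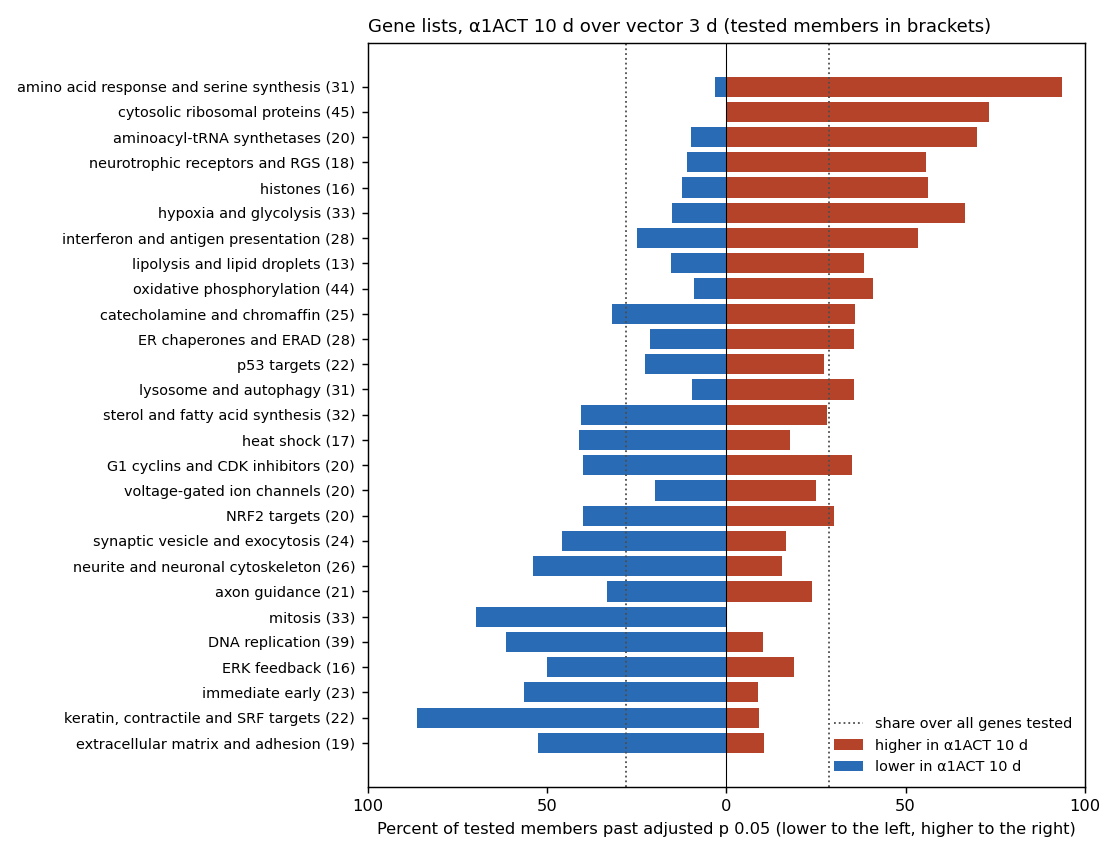
Share of the tested members of each gene list (number in brackets) that passed an adjusted p of 0.05, lower in α1ACT 10 d to the left and higher to the right, for lists with at least 13 tested members. Dotted lines are the shares over all genes, 28.1% and 28.8%, and lists run from the highest to the lowest median log2 fold change.

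Immediate early genes were lower for 13 of 23 (56.5%) and higher for 2, with a median of -0.51, and 4 were higher without α1ACT 10 d replicate 2. Jun, an AP-1 subunit, had 33.6, 26.2 and 41.1 CPM in α1ACT 10 d, against 99.5, 129 and 95.1 CPM in vector 3 d (log2 -1.69 ± 0.13). Klf6, a zinc finger factor, had 42.6, 48.9 and 46.7 CPM in α1ACT 10 d and 137, 178 and 134 CPM in vector 3 d, and Arc, a synaptic immediate early gene, 8.92, 10.1 and 8.92 CPM in α1ACT 10 d and 28.1, 42.2 and 31.1 CPM in vector 3 d. Neither gene had overlapping groups. Fos, Junb and Atf3 did not pass, and Fos averaged 9.66 CPM in α1ACT 10 d and 7.24 CPM in vector 3 d. Myc, which drives growth, was 2.38-fold higher, at 18.9, 20.7 and 13.0 CPM against 7.88, 7.07 and 7.26 CPM in vector 3 d. Of 16 genes of ERK feedback, 8 were lower and 3 higher (median -0.43). Dusp6, a phosphatase of ERK, had 1.90, 1.91 and 2.11 CPM in α1ACT 10 d and 7.06, 13.2 and 8.09 CPM in vector 3 d, 4.77-fold lower. Etv5, a transcription factor downstream of ERK, was 2.28-fold lower.

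The keratin, contractile and SRF target list had the highest share of lower genes of the 32 lists, 19 of 22 (86.4%), with 2 higher and a median of -0.80. Srf itself had 64.2, 70.2 and 74.3 CPM in α1ACT 10 d and 163, 199 and 151 CPM in vector 3 d, 2.46-fold lower (adjusted p = 1.09e-11). Vcl, the focal adhesion protein vinculin, had 92.4, 94.2 and 103 CPM in α1ACT 10 d, against 389.8, 549.9 and 417 CPM in vector 3 d (log2 -2.23 ± 0.10). Cytoplasmic actin genes were lower too, with Actg1 at 173, 155 and 209.5 CPM in α1ACT 10 d and 463, 617 and 502 CPM in vector 3 d, and Actb at 1464, 1497 and 1673 CPM in α1ACT 10 d and 2748, 2920.2 and 2729 CPM in vector 3 d. The groups did not overlap for any of these genes, although reads of the near-identical actin copies may be shared or lost. Tgfb1i1, the focal adhesion adaptor HIC-5, was 5.67-fold lower, and Krt8, a simple epithelial keratin, 2.05-fold lower. Against the list, Smtnl2, a smoothelin-like protein, had 34.9, 34.8 and 35.2 CPM in α1ACT 10 d and 8.29, 6.15 and 7.57 CPM in vector 3 d (log2 2.25 ± 0.12), and Cnn3, a calponin, had 0.65 ± 0.07.

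The CArG box is the motif that SRF is known to bind. It was found in the 250 bases before the start of 2 of 18 keratin and contractile genes (11.1%), 4 of 15 immediate early genes (26.7%), 88 of 8074 tested genes (1.09%) and 412 of all 27457 promoters (1.5%), again as letters only. These lists too were chosen by known function, so their shares are likewise no result of these libraries. The keratin and contractile genes with a match were Actg1, which fell, and Acta1, which did not pass (log2 0.24, adjusted p = 0.447, edgeR). The 4 immediate early genes with a match, Egr1, Klf6, Zfp36 and Srf, were lower. Srf has 2 matches and Actg1 has 1, in capitals below, and both genes fell (chr9:21923826-21924075, plus strand, and chr10:106120952-106121201, minus strand, GRCr8, 5′ to 3′).
Srf: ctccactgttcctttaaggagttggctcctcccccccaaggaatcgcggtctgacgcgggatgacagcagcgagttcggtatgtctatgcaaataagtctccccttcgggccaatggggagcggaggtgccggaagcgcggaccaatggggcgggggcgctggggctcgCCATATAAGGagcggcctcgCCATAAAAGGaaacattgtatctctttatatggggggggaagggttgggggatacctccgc
Actg1: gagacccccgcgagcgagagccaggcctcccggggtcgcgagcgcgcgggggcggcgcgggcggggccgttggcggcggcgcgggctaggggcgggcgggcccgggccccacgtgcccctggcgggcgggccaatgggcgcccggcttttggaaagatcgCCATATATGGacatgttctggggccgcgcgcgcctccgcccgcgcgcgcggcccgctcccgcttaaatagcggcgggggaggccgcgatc

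Matrix and adhesion genes were lower for 10 of 19 and higher for 2 (median -1.01). Lamc1, a laminin chain, had 62.3, 55.9 and 56.1 CPM in α1ACT 10 d and 131, 137 and 136 CPM in vector 3 d. It was lower in every α1ACT 10 d library than in any vector 3 d library. Of 7 tested epithelial markers, 1 was higher and 2 were lower, with a median of 0.00, and 2 were higher without α1ACT 10 d replicate 1. Epcam had 142, 146 and 136 CPM in α1ACT 10 d, against 253, 342 and 264 CPM in vector 3 d (2.02-fold lower), and Cldn4, a claudin, had a log2 fold change of -0.40 ± 0.08. Cldn3, a tight junction claudin, had 57.8, 65.6 and 62.8 CPM in α1ACT 10 d and 54.3, 43.7 and 47.1 CPM in vector 3 d, higher by 0.36 ± 0.07 on the log2 scale, while Cldn7, another claudin, averaged 86.9 CPM in α1ACT 10 d and 86.9 CPM in vector 3 d.

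Cell division genes were mostly lower. Of 33 mitosis genes, 23 fell (69.7%) and none rose, with a median of -0.31; 1 rose without α1ACT 10 d replicate 3. Prc1, which bundles spindle midzone microtubules, had 281, 313 and 254 CPM in α1ACT 10 d and 442, 499 and 471 CPM in vector 3 d (1.66-fold lower). Espl1, the separase that splits sister chromatids, had 26.5, 22.2 and 21.8 CPM in α1ACT 10 d and 49.2, 52.5 and 50.9 CPM in vector 3 d (2.16-fold lower). Mki67, a proliferation marker, had 1071, 1056 and 957 CPM in α1ACT 10 d, against 1179, 1228 and 1277 CPM in vector 3 d. Of 39 replication genes, 24 were lower (61.5%) and 4 higher, with a median of -0.37, and 2 were higher without α1ACT 10 d replicate 2 or without vector 3 d replicate 1. Rrm2, a ribonucleotide reductase subunit, was 2.10-fold lower, Tyms, thymidylate synthase, 1.74-fold and the helicase subunit Mcm6 1.67-fold. Pold1, a DNA polymerase subunit, was higher (log2 0.56 ± 0.09).

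Of 20 G1 cyclins and CDK inhibitors, 7 were higher and 8 lower, and 5 were lower without α1ACT 10 d replicate 3. Ccnd1, cyclin D1, had 984, 1125 and 1021 CPM in α1ACT 10 d and 677, 608 and 710.2 CPM in vector 3 d (1.57-fold higher), whereas Cdkn1a, the inhibitor p21, averaged 131 CPM in α1ACT 10 d and 202 CPM in vector 3 d (log2 -0.63 ± 0.12). Histone genes were higher for 9 of 16 (56.2%) and lower for 2, with a median of 0.34. This count depended on 1 library, and reads of near-identical histone copies may be shared or lost. Hist2h4 had 553, 832 and 539 CPM in α1ACT 10 d and 392, 379 and 330.3 CPM in vector 3 d, with replicate 2 the highest. Without α1ACT 10 d replicate 2, 4 histone genes were higher and 4 lower. H1f0, a replacement linker histone, had 328, 334 and 352 CPM in α1ACT 10 d, against 179, 191 and 169 CPM in vector 3 d, with no such spread.

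Genes of glycolysis and the hypoxia response were higher for 22 of 33 (66.7%) and lower for 5, with a median of 0.33. Hk2, a hexokinase, had 70.8, 47.7 and 83.8 CPM in α1ACT 10 d and 13.7, 15.8 and 15.2 CPM in vector 3 d (4.52-fold higher). Vegfa, the vascular growth factor, had 1199, 1057 and 1295 CPM in α1ACT 10 d, against 499.7, 459 and 452 CPM in vector 3 d (2.52-fold higher). Egln3, an oxygen-sensing prolyl hydroxylase, had 462, 416 and 577 CPM in α1ACT 10 d and 140.3, 150.3 and 141 CPM in vector 3 d. All 3 were higher in every α1ACT 10 d library, and so was Ldha, lactate dehydrogenase A, at 2787 CPM against 1746 CPM in vector 3 d. Slc2a1, the glucose transporter GLUT1, and Adm, adrenomedullin, were lower, with log2 fold changes of -0.79 ± 0.11 and -0.81 ± 0.08. Subunits of the respiratory chain were higher for 18 of 44 (40.9%) and lower for 4, with a median of 0.12, and 2 were lower without α1ACT 10 d replicate 1 or without vector 3 d replicate 2.

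Sterol and fatty acid synthesis genes were split, 9 higher and 13 lower of 32 (median -0.03). Scd1, a fatty acid desaturase, had 789, 621 and 992 CPM in α1ACT 10 d and 302, 339.9 and 311 CPM in vector 3 d (2.52-fold higher). Fasn, fatty acid synthase, had 1138, 1136 and 1266 CPM in α1ACT 10 d, against 1908, 1915 and 1891 CPM in vector 3 d (1.61-fold lower), and Srebf2, which drives sterol genes, was 1.34-fold lower. Of 13 genes of lipid droplets and lipolysis, 5 were higher and 2 lower, and 3 were higher without α1ACT 10 d replicate 2. G0s2, an inhibitor of the lipase ATGL, had 532, 612 and 544 CPM in α1ACT 10 d and 88.1, 73.9 and 82.8 CPM in vector 3 d. Its log2 fold change of 2.79 ± 0.10 had an adjusted p of 1.15e-16. Of 31 lysosome and autophagy genes, 11 were higher and 3 lower (median 0.07); 1 was lower without α1ACT 10 d replicate 2.

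Among genes of catecholamine and chromaffin function, 9 of 25 were higher (36.0%) and 8 lower (32.0%), with a median of 0.09. Th, the rate-limiting enzyme of catecholamine synthesis, had 8181, 7970.0 and 8637 CPM in α1ACT 10 d, against 5895, 5722 and 5759 CPM in vector 3 d (1.43-fold higher). Chgb, a granin of dense-core vesicles, had 13274, 13409 and 14348 CPM in α1ACT 10 d and 9143, 9562 and 9747 CPM in vector 3 d (1.44-fold higher). Vgf, a neuropeptide precursor induced by growth factors, had 95.8, 91.7 and 118 CPM in α1ACT 10 d and 617, 889.8 and 567 CPM in vector 3 d, and it was 6.80-fold lower. Gch1, which makes the cofactor of Th, fell to 129.5 CPM in α1ACT 10 d, against 257 CPM in vector 3 d, and Phox2a, a sympathoadrenal transcription factor, was 1.95-fold lower. Dbh, which makes noradrenaline, did not pass, with a log2 fold change of -0.02 ± 0.13.

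Neurite and neuronal cytoskeleton genes were lower for 14 of 26 (53.8%) and higher for 4, with a median of -0.25. Nefm, a neurofilament subunit, had 38.4, 34.4 and 35.5 CPM in α1ACT 10 d and 113, 127 and 125 CPM in vector 3 d (3.37-fold lower). Dclk1, a microtubule-associated kinase, had 11.5, 14.9 and 12.2 CPM in α1ACT 10 d, against 66.6, 97.5 and 68.7 CPM in vector 3 d (6.02-fold lower), and Map1b was 2.06-fold lower. Prph, the intermediate filament peripherin, and Kif21b, a kinesin, were higher, and Kif21b had 6.11, 6.25 and 5.87 CPM in α1ACT 10 d and 0.903, 0.919 and 0.933 CPM in vector 3 d. Of 24 synaptic vesicle and exocytosis genes, 11 were lower and 4 higher. Snap25, a membrane fusion protein, had 1205, 1256 and 1327 CPM in α1ACT 10 d and 1758, 1907 and 1849.5 CPM in vector 3 d (1.46-fold lower). Rab3a, a vesicle GTPase, had 75.2, 67.9 and 82.6 CPM in α1ACT 10 d, against 24.6, 19.4 and 22.4 CPM in vector 3 d (3.39-fold higher).

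Of 20 voltage-gated channel genes, 5 were higher and 4 lower, and 2 were higher without α1ACT 10 d replicate 1 or 3 or without vector 3 d replicate 2. Beside Kcnh1, Cacna1b, the N-type calcium channel, had 85.3, 79.0 and 88.8 CPM in α1ACT 10 d and 112, 113 and 105 CPM in vector 3 d (1.30-fold lower). Of 21 axon guidance genes, 5 were higher and 7 lower. Efnb1, an ephrin, had 158, 135 and 165 CPM in α1ACT 10 d and 62.0, 44.5 and 56.1 CPM in vector 3 d (2.81-fold higher), and Unc5c, a netrin receptor, 93.9, 81.8 and 79.0 CPM in α1ACT 10 d and 186, 183 and 198 CPM in vector 3 d (2.22-fold lower). Neurotrophic receptor and RGS genes were higher for 10 of 18 (55.6%) and lower for 2 (median 0.39), and 1 was lower without α1ACT 10 d replicate 1 or 2 or without vector 3 d replicate 2. Rgs2, which limits signalling by G proteins, had 12.5, 7.31 and 19.4 CPM in α1ACT 10 d, against 1.40, 2.39 and 2.18 CPM in vector 3 d, 6.58-fold higher with a wide spread within α1ACT 10 d.

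Heat shock genes were lower for 7 of 17 and higher for 3, and Hspb1, a small heat shock protein, had 51.7, 48.6 and 63.6 CPM in α1ACT 10 d and 146, 159 and 139.9 CPM in vector 3 d (2.73-fold lower). Its partner Bag3 was 2.70-fold lower. Of 20 NRF2 targets, 6 were higher, Slc7a11 among them, and 8 lower. Srxn1, sulfiredoxin, had 185, 175 and 195 CPM in α1ACT 10 d and 385, 451 and 378 CPM in vector 3 d (2.19-fold lower). Targets of p53 gave 6 higher and 5 lower of 22, and 3 higher without vector 3 d replicate 2. Interferon and antigen presentation genes gave 15 higher and 7 lower of 28 (median 0.27), with Irf3, an interferon regulatory factor, 1.68-fold higher and Tapbp, tapasin of antigen loading, 1.44-fold lower.

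The intermediate groups of the files named Q11 place this contrast in a course under each reading. By file name the course runs over 6 h (labelled vector 3 d), 24 h (labelled α1ACT 3 d), 3 d (labelled vector 10 d) and 10 d (labelled α1ACT 10 d). Chac1 averaged 4.45, 4.68, 152 and 70.9 CPM along it. Trim66 averaged 0.134, 0.341, 30.9 and 4.42 CPM, and Slc7a11 18.7, 6.44, 455 and 133 CPM. All 3 genes were highest in the group labelled vector 10 d, where Chac1 had 155, 160.3 and 139.6 CPM. Fosl1 instead averaged 16.1, 0.736, 0.743 and 0.318 CPM, and Kcnh1 4.03, 27.8, 22.9 and 30.7 CPM. For these genes the widest gap between neighbouring groups of this order lay between those labelled vector 3 d and α1ACT 3 d. Rgs2 differed at the other end, with 1.99, 1.03, 0.652 and 13.1 CPM.

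**Figure D3:**
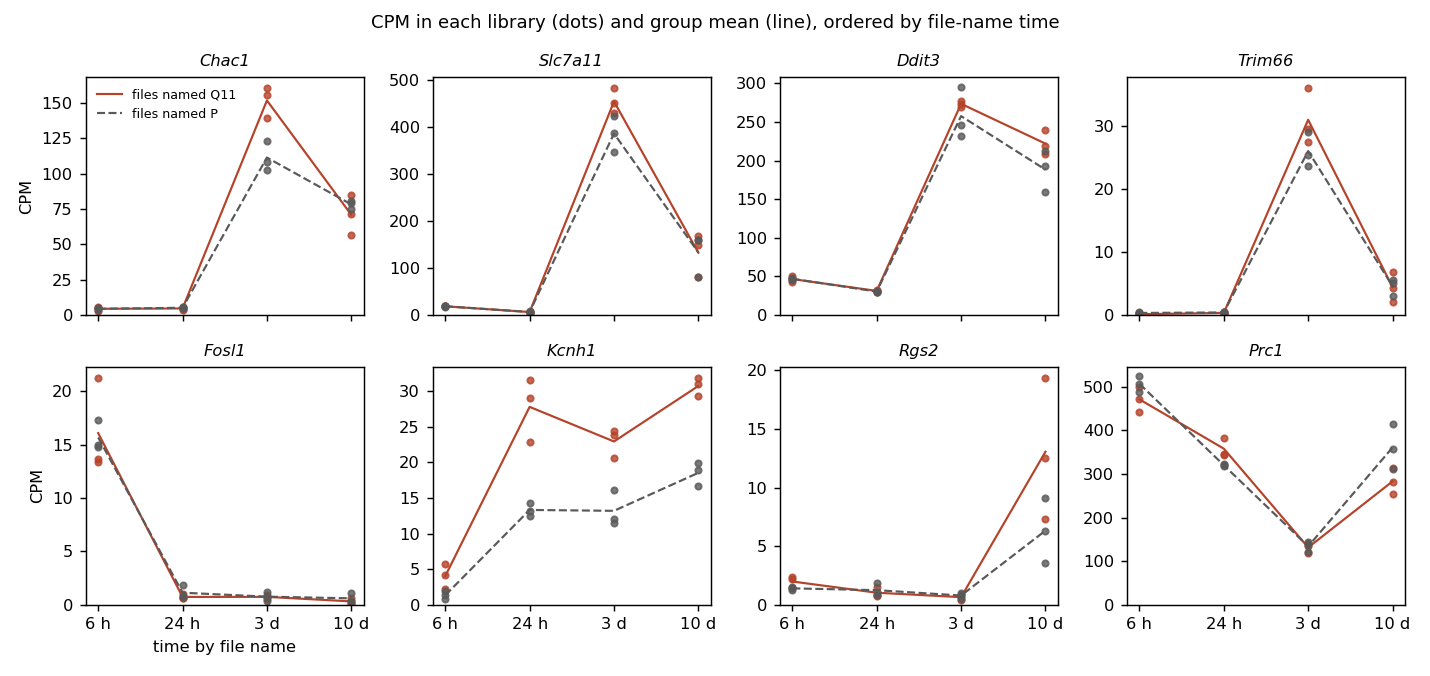
CPM of 8 genes in each library (points) and group means (lines), ordered by the time in the file name, for the files named Q11 (solid) and P (dashed). In the files named Q11, Chac1, Slc7a11, Ddit3 and Trim66 are highest and Prc1 is lowest in the group named 3 d, Fosl1 is high in the group named 6 h, and Rgs2 in the group named 10 d.

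Read by the labels, the change is the sum of a line difference at 3 d (α1ACT 3 d over vector 3 d) and a time difference in the α1ACT line (10 d over 3 d), or of a time difference in the vector line (10 d over 3 d) and a line difference at 10 d (α1ACT 10 d over vector 10 d). These differences share libraries with the contrast and with each other, so their values are only set side by side. Genes called were 3934 (39.4%) for the line at 3 d, 4454 (44.6%) for time in the α1ACT line, 6419 (64.2%) for time in the vector line and 5886 (58.9%) for the line at 10 d. By file name the same differences are 24 h over 6 h, 10 d over 24 h, 3 d over 6 h and 10 d over 3 d. The remaining step of the file names, 3 d over 24 h, is vector 10 d over α1ACT 3 d by label and called 5825 genes (58.3%).

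For the amino acid response, the median log2 difference was -0.09 for the line at 3 d and 1.39 for time in the α1ACT line, and 2.30 for time in the vector line and -0.85 for the line at 10 d. In the vector line 31 of 31 members were higher at 10 d than at 3 d (33.2% of all genes), and at 10 d 26 were lower in α1ACT than in vector (29.4% of all genes). Ddit3 gave -0.57 ± 0.10 for the line at 3 d, 2.83 ± 0.10 for time in α1ACT, 2.55 ± 0.09 for time in vector and -0.30 ± 0.08 for the line at 10 d. The mitosis list took the opposite course, with medians of -0.03 and -0.35, and of -1.09 and 0.86, in the same order. All 33 mitosis genes were lower at 10 d than at 3 d in the vector line (31% of all genes), and 29 were higher in α1ACT than in vector at 10 d (29.5%). Replication genes gave 38 lower of 39 and 38 higher of 39 in these differences. Sterol and fatty acid synthesis genes, split in the contrast itself, gave 26 lower of 32 over time in vector and 29 higher of 32 between the lines at 10 d. Scd1 averaged 318, 251, 94.2 and 801 CPM in the order of the file names.

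Contractile and immediate early genes differed already between the groups labelled 3 d. Of the 22 keratin, contractile and SRF target genes, 16 were lower for α1ACT 3 d over vector 3 d (19.4% of all genes), with a median of -0.49, and Vcl gave -1.45 ± 0.09 there and -0.78 ± 0.10 for time in the α1ACT line. Of the 23 immediate early genes, 16 were lower for α1ACT 3 d over vector 3 d, with a median of -0.84. Jun gave -0.88 ± 0.12 for the line at 3 d and -0.80 ± 0.13 for time in the α1ACT line. Ribosomal protein genes had a median of 0.00 for the line at 3 d and 0.48 for time in the α1ACT line, where 35 of 45 were higher (21.8% of all genes).

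**Figure D4:**
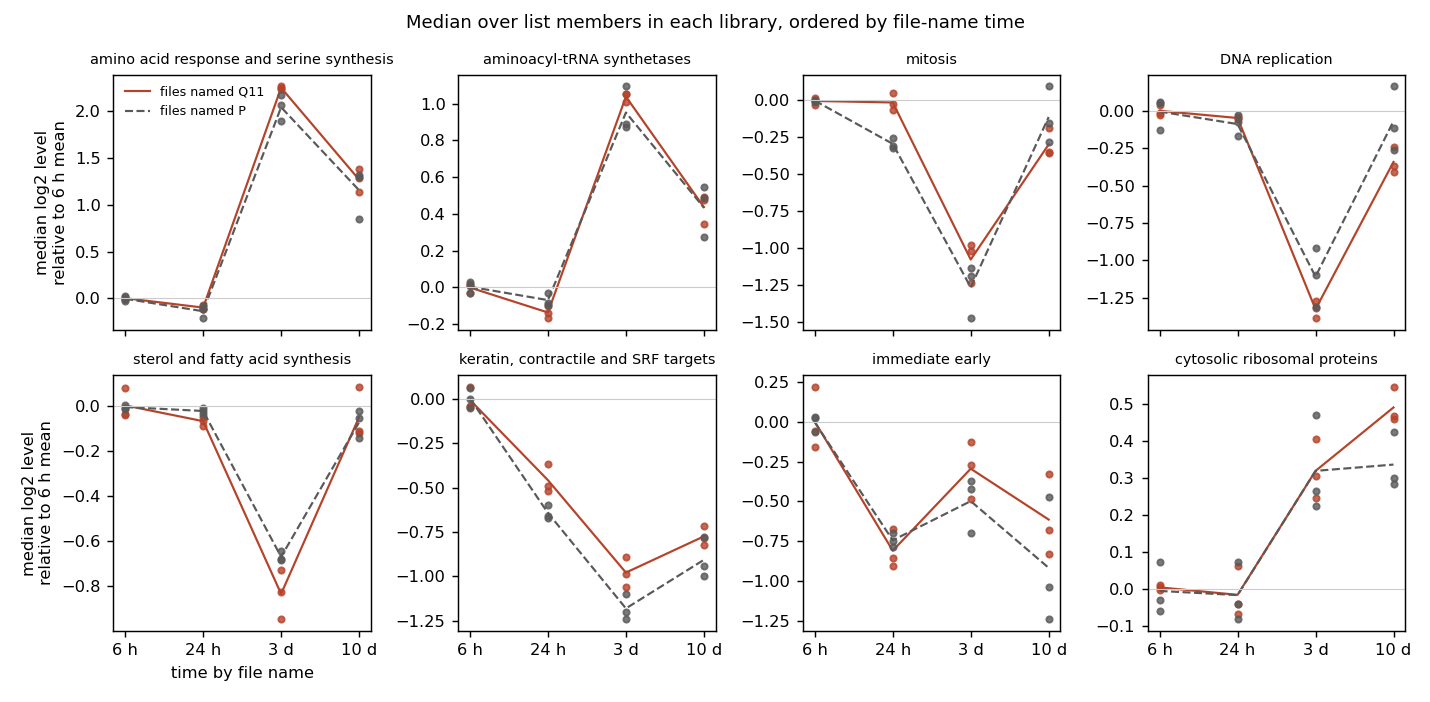
Median over the tested members of 8 lists of the log2 level relative to the group named 6 h, in each library (points) with group means (lines), ordered by the time in the file name, for the files named Q11 (solid) and P (dashed). In the files named Q11, the amino acid response list stood at 2.24 to 2.27 in the group named 3 d and 1.14 to 1.38 in the group named 10 d, and the replication list at -1.39 to -1.27 and -0.41 to -0.24.

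The files named P hold the matching ends by file name, 10 d (labelled α1ACT 24 h) and 6 h (labelled vector 6 h), and share no library with the contrast. Over the 8 groups, each lay nearest to the group whose file name carries the same time. By label, each lay nearest to a group of the same line at another time, 6 h with 3 d and 24 h with 10 d. The nearest groups alone therefore do not tell the 2 readings apart. The root mean square distance in log2 CPM was 0.215 between α1ACT 10 d and α1ACT 24 h and 0.194 between vector 3 d and vector 6 h, against 0.521 between α1ACT 10 d and vector 3 d. By label, the vector line lay 0.644 apart between 6 h and 24 h and 0.669 between 3 d and 10 d. For the α1ACT line these distances were 0.400 and 0.405, with 0.185 between 6 h and 3 d. Which reading holds was not tested. For α1ACT 24 h over vector 6 h, 5696 genes were called (57%). By label this too sets the α1ACT line over the vector line, with line and time mixed. In the shared changes below, a common time difference and a common line difference cannot be told apart. Of the 5683 genes called in the contrast, 5601 (98.6%) had the same sign there, and 4735 were called in both, 83.3% of the one list and 83.1% of the other. Pearson's r across the 9994 genes was 0.900, a description only, since genes are not independent replicates.

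The difference between these changes was tested gene by gene. No gene of 9994 passed (edgeR quasi-likelihood, lowest adjusted p = 0.287, for Hdac5; 696 genes or 6.96% at an unadjusted p under 0.05), and DESeq2 called 0 (594 unadjusted). edgeR called 3 genes without α1ACT 10 d replicate 2 and 9 without α1ACT 24 h replicate 3. A failed test does not show equal changes. The median SE of the difference was 0.12 on the log2 scale, and the 95% interval lay within 1 of 0 for 9001 genes (90.1%). Chac1 gave 4.00 ± 0.16 in the contrast and 4.13 in the files named P, a difference of -0.13 ± 0.27. Ddit3 gave 2.25 ± 0.09 and 2.01, G0s2 2.79 ± 0.10 and 2.79, Vcl -2.23 ± 0.10 and -2.44, and Th 0.51 ± 0.05 and 0.34. Kcnh1 gave 2.91 ± 0.19 and 3.81, with a difference of -0.90 ± 0.38 and an adjusted p of 0.668. Rrm2 gave -1.07 ± 0.12 and -0.40, with a difference of -0.67 ± 0.17 (adjusted p = 0.34). List medians in the contrast and in the files named P were 1.25 and 1.13 for the amino acid response, 0.44 and 0.43 for synthetases, -0.80 and -0.93 for contractile genes, -0.31 and -0.14 for mitosis, -0.37 and -0.09 for replication and 0.34 and 0.63 for histones.

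**Figure D5:**
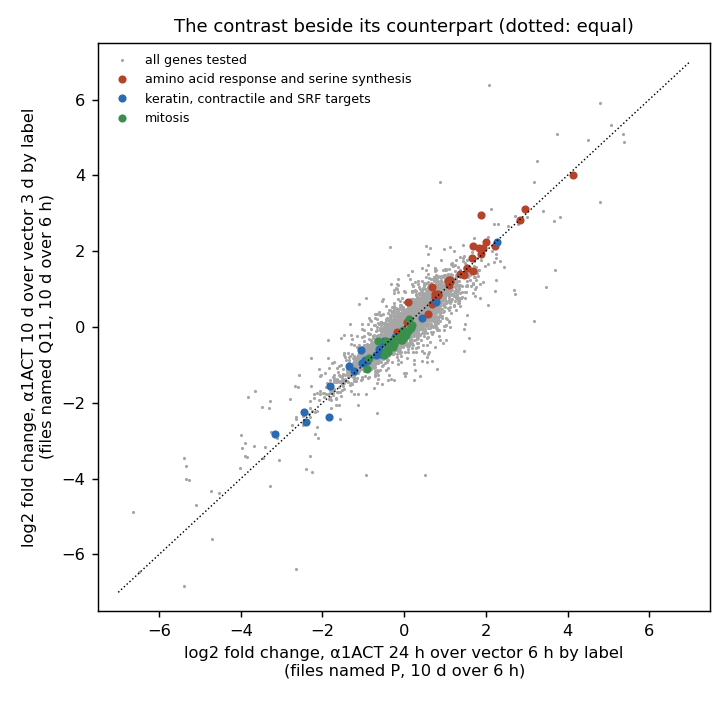
Log2 fold change of each tested gene (grey) for α1ACT 10 d over vector 3 d (vertical axis) against α1ACT 24 h over vector 6 h (horizontal axis), which by file name are 10 d over 6 h in the files named Q11 and P. Coloured points are 3 gene lists, the dotted line marks equal changes, and r across genes is 0.900.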

How the data were processed

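Total RNA of PC12 cells was sequenced in 24 libraries from a stranded kit with ribosomal RNA depletion, per the labels. Each library has 1 table that the authors deposited as raw counts, unnormalized, of 17055 gene symbols followed by 5 summary lines. The submitters' processing notes name FastQC 0.11.2, TopHat2 2.0.10, Picard 1.117, HTSeq 0.5.4p5, edgeR and build rn5. What each did, the annotation, strandedness in counting and duplicate handling are not stated. Overlapping antisense genes cannot be separated if counting ignored strand, and near-identical gene copies may have lost reads.

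Summary lines entered neither library sizes nor tests. Ambiguous reads were 0.159% to 0.242%. Of the symbols, 16568 matched the RefSeq table of GRCr8 with synonyms, used for names and promoters alone. Counts were tested with edgeR 4.0.16 in R 4.3.3 (quasi-likelihood F-test, TMM factors 0.981 to 1.02) in 1 fit of 24 libraries in 8 label groups (16 residual degrees of freedom). A count of at least 10 by group and 15 in all, as edgeR filters, left 9994 genes, with a threshold of 0.05 after Benjamini-Hochberg adjustment. The common coefficient of variation was 5.75%. The statistics were tested on counts simulated from the fit's own means and spread. Such counts follow the model by design, so they cannot show how well it holds for these replicates. CPM values use TMM-scaled totals. A floor of 3 counts was 0.246 to 0.346 CPM in the 6 libraries, and such floors and intervals cover no more than counting error. Chi-square per degree of freedom between replicates was 2.00 to 11.7, so no pair was treated as 1 library.

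Groups come from the labels, and file names only chose the libraries and gave the second reading. Members and lists were chosen with earlier results of these data known. Named genes were the 8 largest rises and 8 largest falls past the threshold with at least 2 CPM on average and no overlap, up to 3 genes of smallest p per list, and Cacna1a; a rule for genes with different changes in the files named P named none. Some genes that these rules pick are not reported here. Other list members are examples chosen after their values were seen. Replicate numbers were not taken as pairs. Alternatives were other size factors, no filter, DESeq2 1.42.0, the contrast's groups alone, a replicate block and leaving out libraries; leaving out all libraries of 1 number was added after seeing the data.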

Additional observations from a re-analysis of the deposited data

Results flagged for a closer look

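Reads outside annotated genes, which entered no test, took a mean of 52.5% of reads in α1ACT 10 d and 48.8% in vector 3 d. Alignments set aside as not unique, also outside every test, numbered 99.5 per 100 reads in α1ACT 10 d and 86.9 in vector 3 d. Both were higher in every α1ACT 10 d library than in any vector 3 d library. Their part in the gene results was not tested.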

How the results depend on the processing

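The count of 5683 genes called for α1ACT 10 d over vector 3 d was 5513 with DESeq2, 5551 without the filter and 5691 with RLE size factors, and 4435 to 5322 with libraries left out. For the difference between this change and that in the files named P, the count of 0 ranged from 0 to 28 with libraries left out, with 3 called without α1ACT 10 d replicate 2, 9 without α1ACT 24 h replicate 3 and 28 without all libraries numbered 2. For α1ACT 3 d over vector 3 d, the 3934 genes became 2462 without all libraries numbered 1 and 2449 without those numbered 3, where fewer libraries remain. Of 1575 values of named genes under alternatives, 1567 kept their direction and call. Fbln1 lost its call without α1ACT 10 d replicate 2 (adjusted p = 0.140), without vector 3 d replicate 1 (0.0918) and replicate 3 (0.169), and without all libraries numbered 1 (0.103) or 3 (0.230), and Mbp without those numbered 1 (0.0637). Cacna1a, not called, turned to -0.0025 and -0.0022 without vector 3 d replicate 1 and 2 and ranged from -0.0025 to 0.0323 with libraries left out. The cause was not tested. No size factor moved the median of all genes by more than 0.1.

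Deviations of log2 CPM from the group mean were correlated over genes between libraries of the 2 groups. Same-numbered libraries gave 0.02, 0.17 and 0.08. The numbers were not read as pairs, but they are not without structure. In every group, chi-square per degree of freedom was lowest between replicates 1 and 3. In vector 10 d it was 3.20 there, against 11.7 between 1 and 2 and 7.58 between 2 and 3. What sets replicate 2 apart was not tested. For α1ACT 24 h and vector 6 h, same-numbered libraries gave 0.07, 0.26 and 0.02. By these deviations, α1ACT 10 d replicates 1, 2 and 3 correlated best with vector 3 d numbers 3, 2 and 3. With the replicate block, 5867 genes were called for the contrast and 0 for the difference, 4147 for α1ACT 3 d over vector 3 d, 6005 for vector 10 d over α1ACT 3 d and 6097 for α1ACT 10 d over vector 10 d. Except for the difference, each count was higher than without the block. Depth limits Trim66, Inhbe, Fosl1, Il33, Mpzl2 and Sema3c, whose lower group had at most 9 counts in all.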
